A study of Saccharomyces cerevisiae with 3 samples.

Results

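The intraspecific hybrid R2 IVo of the budding yeast Saccharomyces cerevisiae was compared with its parental strain Sc1 by array comparative genomic hybridisation. The members are all open reading frames (ORFs) with a value in the sample that sets R2 IVo against Sc1, 6135 of the 6178 ORFs of the table. Per the labels, the other samples set R2 IVo against the second parent, Sc2, and Sc1 against Sc2. All DNA came from strains grown and dried at industrial scale, and each sample was a set of duplicate arrays with exchanged dyes that the authors combined into 1 value. The sources used here state neither the genotypes nor the ploidy of the strains. Nothing says that separate cultures were used, so the error below is the error of arrays. The data answer which ORFs differ in hybridisation signal between the hybrid and Sc1, and where on the chromosomes they lie.

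In this assay the DNA of a pair of strains is labelled with different dyes and competes for the same spots, so that the ratio at a spot follows the amount of matching DNA in each strain. A ratio can move because a gene has more or fewer copies, because its sequence departs from the spotted one, or because related copies elsewhere bind the same spot, and these cannot be told apart here. In S. cerevisiae the regions near the telomeres hold families of closely related genes for sugar uptake, maltose use, flocculation and vitamin synthesis, and strains are known to differ most there. The Ty elements, retrotransposons that copy themselves through RNA, also vary in number and place between strains.

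Each ORF has a direct value from the sample of R2 IVo against Sc1 and an indirect value, the hybrid over Sc2 minus Sc1 over Sc2, from the other 2 samples. Both are read as log2 ratios with the hybrid in the numerator, and each sample was centred on its median. The base and the direction are not stated. The base of 2 is a reading of the values, and the direction is likely from the titles. If the direction were the opposite, every "higher" and "lower" below would change places. An estimate combines both paths in a limma fit of the 3 samples, with its standard error (SE), and an ORF was called at a Benjamini-Hochberg adjusted p under 0.05 over the 6123 ORFs with 3 values. The difference between the direct and the indirect value is the closure. Each ORF has only 1 closure, so its SE leans on the spread over all ORFs, most of which have ratios near 0. Some ORFs with large ratios, though not all, had closures over 1, so a small SE at a large ratio may understate its error.

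Most ORFs had ratios near 0 between the hybrid and Sc1. The middle 50% of ORFs, from the 25th to the 75th percentile, had direct values from −0.06 to 0.07, and the 5th and 95th percentiles were −0.17 and 0.19. A direct value of at least 1 in size was found for 14 ORFs, 0.228% of those measured, 10 higher and 4 lower in the hybrid. All 14 are cells whose decimal point had to be restored. The limma fit called 41 of 6123 ORFs, 0.670%, of which 20 (0.327%) were higher and 21 (0.343%) lower in the hybrid. All 41 had the same sign on both paths, 22 of them use at least 1 restored value, and 489 ORFs had an unadjusted p under 0.05. The fit combines both paths and its SE grows with their difference, so the shared sign is no separate test. The balance of directions moved with the centring, to 12 higher and 19 lower without it and to 28 and 21 with the mode in place of the median. With 4 prior degrees of freedom in the fit 23 calls remained, and the calls below of IMA1, YJL220W, AQY3, DDI3, COS12, YEL075W-A, YFL-TYB, YMR051C, CTF3, YLR280C, YDR215C, YLR465C and YHR214C-B were among those that ended. Without centring 10 calls ended, those of REE1, HXT12, YDR215C, YJL220W, YMR051C, YHR214C-B, YLR280C, YEL075W-A, CTF3 and CUP1-1.

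Across all 6123 ORFs, which are not independent replicates, the direct and indirect values had Pearson's r = 0.510 and Spearman's rho = 0.109. Pearson's r was 0.158 over the 6082 ORFs not called and 0.066 over the 5680 ORFs under 0.3 in size on both paths. Both subsets leave out ORFs by their values, which lowers r in itself, so the drop is no test. Spearman's rho, which uses ranks, was low over all ORFs too. The value of 0.510 rests mostly on the few ORFs with large ratios. The paths share the DNA of the strains but no sample. The SD was 0.182 for the direct values, 0.198 for the indirect values and 0.188 for the closure. The scaled median absolute deviations were 0.098, 0.126 and 0.151 in the same order.

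**Figure D1:**
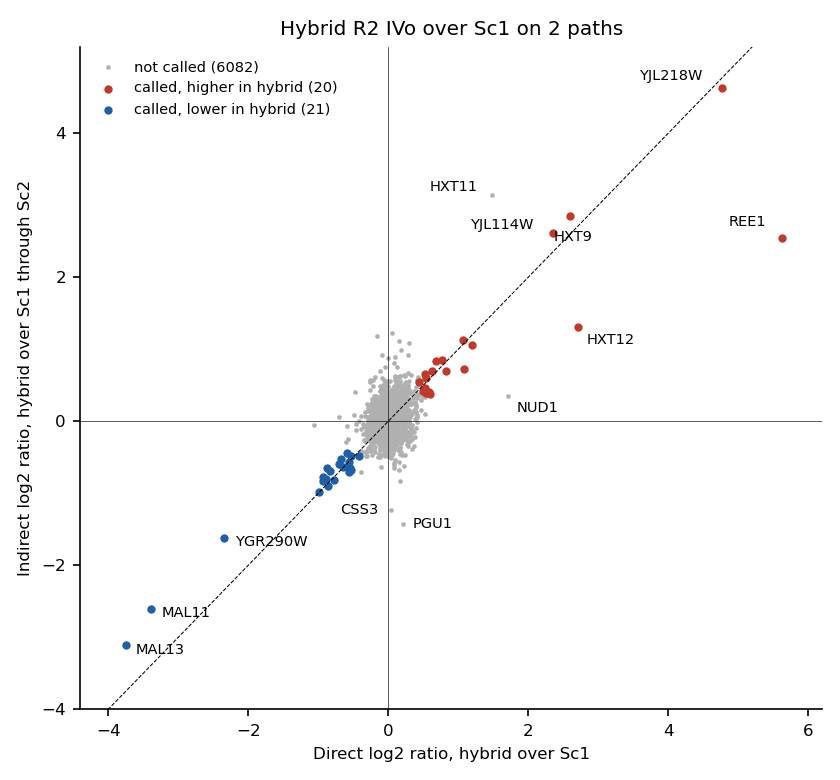
Direct (x axis) against indirect (y axis) log2 ratio of the hybrid over Sc1 for 6123 ORFs, 1 point per ORF, with called ORFs in red (20 higher) and blue (21 lower) and a dashed line where both are equal. MAL13, MAL11, HXT9, YJL114W and YJL218W are far from 0 on both axes, while REE1, HXT12 and NUD1 lie to the right of the line and HXT11 to the left.

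The largest losses of signal were at the MAL locus near the right end of chromosome VII. MAL loci hold genes for the uptake of maltose and related sugars, for their cleavage and for the activator that switches those genes on. MAL13, which encodes a MAL activator, was at −3.76 in the hybrid over Sc1 sample, −0.52 in the hybrid over Sc2 sample and 2.60 in the Sc1 over Sc2 sample. The 3 values give a direct ratio of −3.76 and an indirect ratio of −3.12, so both paths put the hybrid far below Sc1. The estimate was −3.54 ± 0.13 (SE, limma adjusted p = 1.71e-04), which is 11.7-fold lower.

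MAL11, a broad alpha-glucoside transporter gene also known as AGT1, was at −3.40, 0.11 and 2.72 in the same order of samples. Its estimate was −3.13 ± 0.16 (limma adjusted p = 8.56e-04), or 8.77-fold lower, and its hybrid over Sc2 value was near 0. YGR290W, the next ORF outward, was at −2.34 directly and −1.62 indirectly, with an estimate of −2.10 ± 0.15 (limma adjusted p = 0.00321). IMA1, an isomaltase gene on the inner side of MAL13, was also lower, at −0.56 on both paths (estimate −0.56 ± 0.06, limma adjusted p = 0.0169).

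The drop had sharp borders. On the inner side the biotin synthase gene BIO2 was at −0.04 directly and −0.09 indirectly, and on the outer side YGR291C was at −0.12 and −0.22. MAL12, the maltase gene beyond YGR291C, was at −0.21 directly and 0.21 indirectly, so the paths had opposite signs. MAL12 and its near-identical copy MAL32 on chromosome II may bind each other's spots. MAL32 was at −0.13 and −0.12. The permease gene MAL31 and the activator gene MAL33, at the same locus as MAL32, were at −0.08 and −0.05 directly, and none of the 3 was called.

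A cluster of 5 neighbouring ORFs near the left end of chromosome X was higher in the hybrid, and 3 of them, YJL218W, REE1 and HXT9, had the highest estimates of all called ORFs. YJL218W, which encodes a putative acetyltransferase, was at 4.78 in the hybrid over Sc1 sample, −0.22 in the hybrid over Sc2 sample and −4.85 in the Sc1 over Sc2 sample. The paths gave 4.78 and 4.63, and the estimate was 4.73 ± 0.07 (limma adjusted p = 1.37e-06), or 26.5-fold higher. This SE is close to the median SE of all ORFs, 0.064, and the error of so large a ratio was not measured. HXT9, a gene of the hexose transporter family, was at 2.60, −0.09 and −2.94 in the same order. Its estimate was 2.68 ± 0.08 (limma adjusted p = 5.96e-05), or 6.40-fold higher.

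REE1, a gene linked to the regulation of enolase, had the highest direct value of all ORFs, 5.63, but an indirect value of 2.55. The closure of 3.09 gave its estimate of 4.60 an SE of 0.58 (limma adjusted p = 0.0299), above that of its neighbour YJL218W. With 1 closure per ORF, how far their errors differ was not tested. IMA4, an isomaltase gene, was at 0.83 directly and 0.69 indirectly (estimate 0.78 ± 0.07, limma adjusted p = 0.00571), and YJL220W was at 0.58 and 0.41 (estimate 0.52 ± 0.07, limma adjusted p = 0.0361). The flanking ORFs VTH2 and IMA5 were at −0.02 and 0.16 directly, and the hybrid over Sc2 values of the 5 ORFs ran from −0.22 to 0.01.

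Genes related to this cluster lie near the left ends of chromosomes IX and XV, and they moved to different degrees. On chromosome IX, HXT12, annotated as a pseudogene of the hexose transporter family, was at 2.71 directly and 1.31 indirectly (estimate 2.24 ± 0.27, limma adjusted p = 0.0249). Next to it YIL171W was at 1.08 and 0.73 (estimate 0.96 ± 0.09, limma adjusted p = 0.00872), and the isomaltase gene IMA3 was at 0.52 and 0.34 and was not called (limma adjusted p = 0.0627). The flanks VTH1 and CSS1 were at 0.12 and 0.06 directly. The calls of HXT12 and REE1 ended with robust moderation, without centring and with 4 prior degrees of freedom.

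On chromosome XV, the hexose transporter gene HXT11 was at 1.49 directly and 3.15 indirectly, a closure of −1.66, and with an SE of 0.32 it missed the threshold (limma adjusted p = 0.0685). Its inner neighbour HPF1, which encodes a mannoprotein that reduces protein haze in wine, was at 0.16 and 0.04, and the isomaltase gene IMA2 on the outer side was at 0.03 and 0.16. HXT9, HXT11 and HXT12 are closely related, as are IMA3 and IMA4, so signals may pass between their spots. Whether they are separate differences was not tested.

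A lower block near the left end of chromosome VI covered 4 neighbouring genes of nutrient uptake and use. AGP3, an amino acid permease gene, was at −0.88 in the hybrid over Sc1 sample, 0.13 in the hybrid over Sc2 sample and 0.78 in the Sc1 over Sc2 sample. ZNF1, a transcription factor gene of respiratory metabolism, was at −0.94, 0.09 and 0.86 in the same order. Both estimates were well below 0, at −0.80 ± 0.07 (limma adjusted p = 0.00872) and −0.88 ± 0.07 (limma adjusted p = 0.00414). Between them, AQY3, a putative channel gene of the aquaporin family, was at −0.55 directly and −0.65 indirectly, and DAK2, a dihydroxyacetone kinase gene, at −0.65 and −0.64, and both were called.

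Further out on the same arm, DDI3, SNO3 and SNZ3 formed a second lower block. DDI3 (YFL061W, also called DDI2), which encodes a hydratase of cyanamide, was at −0.53 directly and −0.49 indirectly (estimate −0.51 ± 0.06, limma adjusted p = 0.0245). SNO3 and SNZ3, a gene pair of the vitamin B6 family, were at −0.37 and −0.39 directly and −0.43 and −0.70 indirectly, and neither was called. Their relatives SNO2 and SNZ2 on chromosome XIV were at −0.34 and −0.38 directly and −0.27 and −0.42 indirectly. Signals may pass between the spots of these relatives, and which chromosome they come from was not tested. The ORFs on either side of these blocks were closer to 0, with COS4 at −0.24, THI5 at −0.07, AAD6 at −0.09 and YFL051C at −0.16 directly. The lowest running median over 11 neighbouring ORFs anywhere in the genome lay here, from DDI3 to YFL051C, at −0.39 directly and −0.49 indirectly.

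Twin clusters at the ends of chromosomes IV and X each hold a permease gene, a sorbitol dehydrogenase gene and a hexose transporter gene, and the permease and dehydrogenase genes were lower in the hybrid. On the right end of chromosome X, SOR1 was at −0.99 in the hybrid over Sc1 sample, −0.05 in the hybrid over Sc2 sample and 0.93 in the Sc1 over Sc2 sample. Its paths agreed to within 0.007, and the estimate was −0.98 ± 0.06 (limma adjusted p = 0.00182), 1.98-fold lower. On the left end of chromosome IV, SOR2 was at −0.93, 0.01 and 0.83 in the same order, with an estimate of −0.90 ± 0.06 (limma adjusted p = 0.00321).

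The alpha-glucoside permease genes MPH2, on chromosome IV, and MPH3, on chromosome X, had estimates of −0.87 ± 0.06 and −0.67 ± 0.06 (limma adjusted p = 0.00321 and 0.00921). The hexose transporter genes HXT15 and HXT16 of these clusters differed more between the paths, at −0.46 and −0.12 for HXT15 and −0.60 and −0.29 for HXT16, and neither was called. YJR157W, on the inner side of HXT16, was at −0.77 and −0.82 (limma adjusted p = 0.00414). The thiamine precursor genes THI13 and THI11, which follow inward, were near 0 at −0.02 and −0.04 directly. SOR1 and SOR2 are near-identical copies, as are MPH2 and MPH3, so the values of each pair do not count as independent.

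A block of small subtelomeric ORFs on the left end of chromosome V was higher in the hybrid. YEL076C was at 0.62 directly and 0.69 indirectly (estimate 0.64 ± 0.06, limma adjusted p = 0.00979), and YEL075W-A at 0.44 and 0.54 (estimate 0.47 ± 0.06, limma adjusted p = 0.0411). YEL074W, at 0.43 and 0.61, and YEL075C, at 0.38 and 0.27, were not called. The outer flank YEL076C-A was at −0.03 on both paths. YEL073C, the inner flank, was at −0.32 directly and −0.14 indirectly, opposite in sign to the block. The hybrid over Sc2 values of the 4 block ORFs ran from −0.90 to −0.44, while those of the chromosome X cluster lay near 0. YLR465C, near the right end of chromosome XII, was at −0.68 against Sc2. The helicase genes of Y' elements, given below, ran from −0.63 (YRF1-4) to 0.08 (YRF1-2) against Sc2. Whether related copies at several ends share this signal was not tested, so it need not belong to this arm alone.

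**Figure D2:**
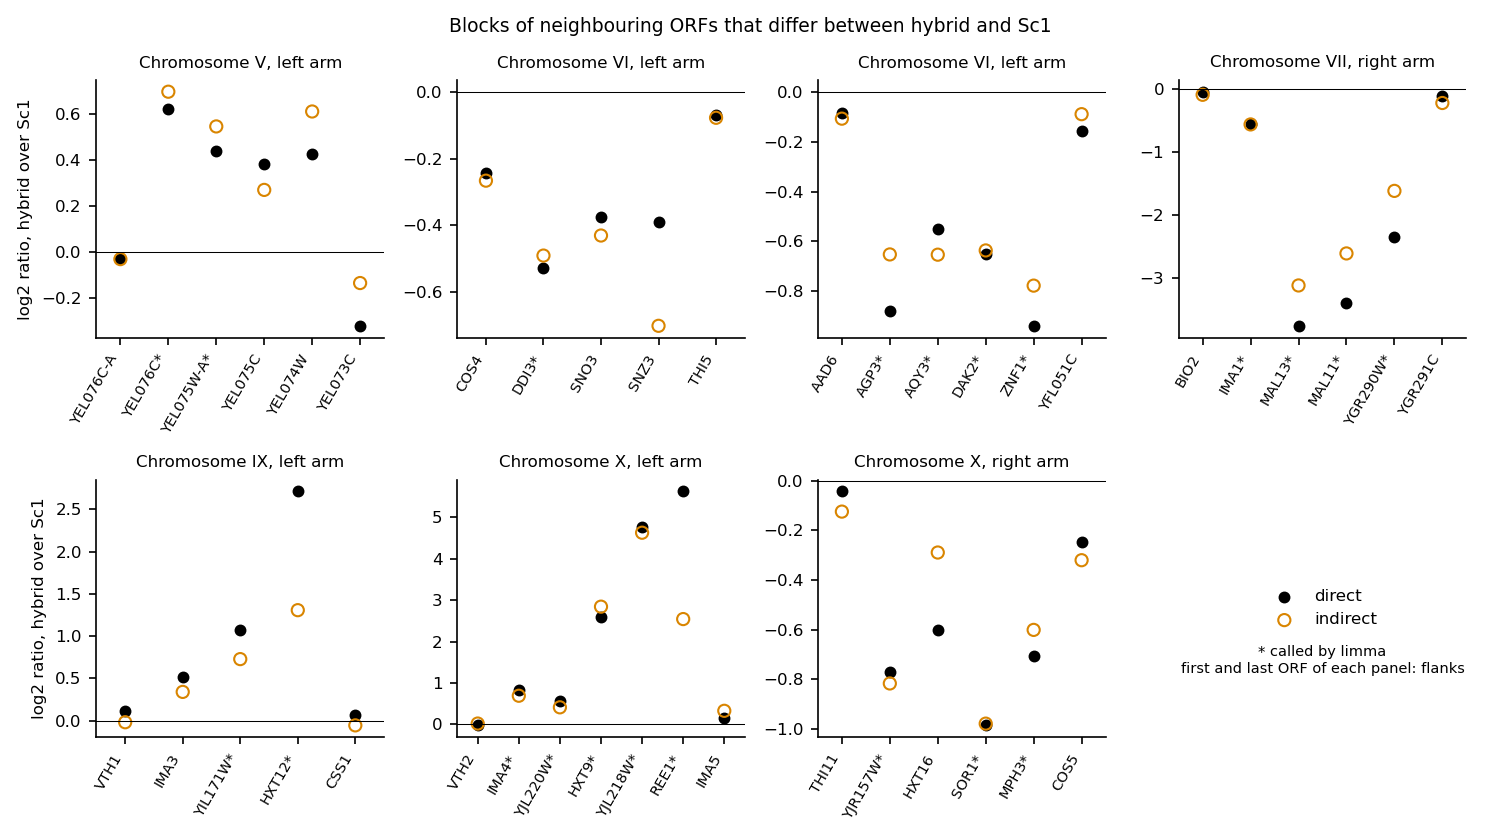
Log2 ratio of the hybrid over Sc1 (y axis, scale set per panel) for each ORF in chromosome order (x axis) in 7 blocks of neighbouring ORFs, with filled points for direct and open points for indirect values, an asterisk for called ORFs and a flanking ORF at each end of a panel. The flanks BIO2 and YGR291C lie near 0 beside MAL13 at −3.76, and VTH2 and IMA5 lie near 0 beside YJL218W at 4.78.

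In all, 65 ORFs, 1.06% of those fitted, had direct and indirect values of the same sign and at least 0.3 in size, 37 of them higher and 28 lower in the hybrid. By the rule that a block holds at least 3 such ORFs with at most 1 other between neighbours, there were 7 blocks, 3 higher and 4 lower. They held 25 of the 65 ORFs and 21 of the 41 called ORFs. The choice of ORFs with the same sign on both paths fixes the direction of a block, so that the direction is no test.

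All 7 blocks lay within the 20 outermost measured ORFs of an arm, and the called ORFs were mostly there too. Of the 160 ORFs that are the 5 outermost of the 32 arms, 159 could be fitted and 12 were called, or 7.55%, against 0.670% over all ORFs. From the 6th to the 10th ORF, 12 of 160 were called (7.50%), and from the 11th to the 20th 5 of 318 (1.57%). No ORF from the 21st to the 50th was called (limma, 0 of 940, with 69 at p under 0.05 before adjustment), and further inside 10 of 4513 were (0.222%). The remaining 2 called ORFs, YFL-TYA and YFL-TYB, have names that give no position.

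The spread of direct values fell in the same order. The scaled median absolute deviation was 0.160 for the 5 outermost ORFs of each arm, 0.142 from the 6th to the 10th, 0.112 from the 11th to the 20th and 0.093 beyond the 50th. The share of ORFs with a direct value of at least 0.3 in size, 2.22% over all ORFs, was 16.9% among the 5 outermost and 1.39% beyond the 50th. ORFs of 1 block share their neighbourhood and often their sequence family, so they are not separate events.

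**Figure D3:**
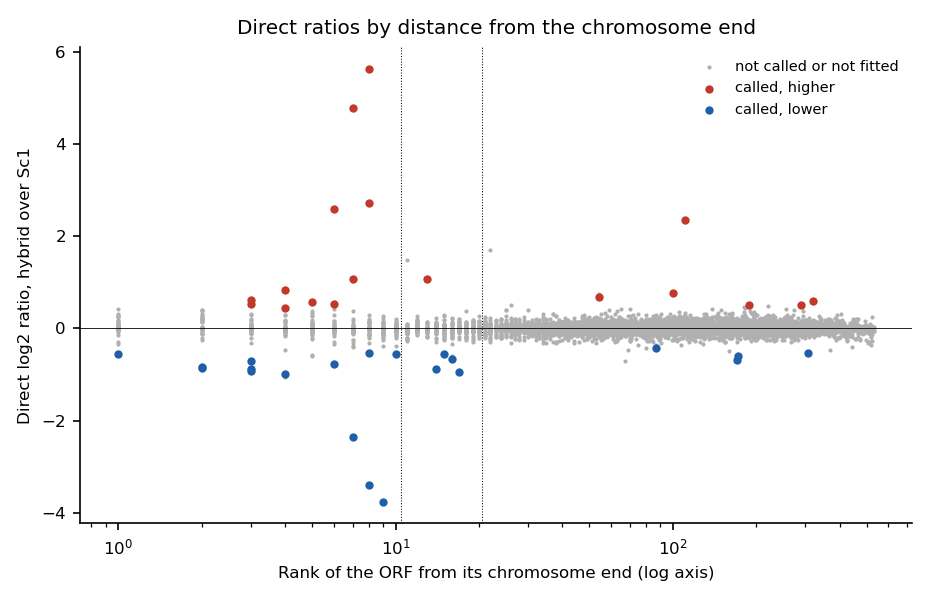
Direct log2 ratio of the hybrid over Sc1 (y axis) against the rank of each ORF from its chromosome end (x axis, log scale), 1 point per ORF, with called ORFs in red and blue and dotted lines after the 10th and the 20th ORF. The points at −3.76 (MAL13) and 5.63 (REE1) lie among the 10 outermost ORFs, and 10 called ORFs lie beyond the 50th.

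The 10 called ORFs of the chromosome interiors were 4 Ty ORFs, the CUP1 genes and 4 others. CUP1-1 and CUP1-2, which encode the copper-binding metallothionein and lie in a tandem repeat on chromosome VIII, were at −0.59 and −0.68 in the hybrid over Sc1 sample, 0.63 and 0.54 in the hybrid over Sc2 sample, and 1.07 and 1.07 in the Sc1 over Sc2 sample. Their estimates were −0.54 ± 0.07 (limma adjusted p = 0.028) and −0.63 ± 0.07 (limma adjusted p = 0.0169), so the hybrid was below Sc1 while its value against Sc2 was above 0. YHR054C, in the same repeat, was at −0.29 directly and −0.25 indirectly, and the flanking RSC30, a gene of a chromatin remodelling complex, was at 0.07 and 0.19. The spots of CUP1-1 and CUP1-2 hold the same gene sequence and count as 1 measurement. Both calls, and that of YLR162W below, ended with 4 prior degrees of freedom, and that of CUP1-1 ended also without centring.

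The other 4, named because they are single interior ORFs and chosen after their values were seen, were YLR162W, CTF3, YLR280C and YDR215C. YLR162W, on chromosome XII, was at −0.53 in the hybrid over Sc1 sample, −0.61 in the hybrid over Sc2 sample and 0.06 in the Sc1 over Sc2 sample, with both hybrid values below 0 (estimate against Sc1 −0.58 ± 0.07, limma adjusted p = 0.0197). Its neighbours YLR161W and MAS1 were at −0.08 and −0.13 directly. CTF3, a kinetochore gene, was at −0.43 and −0.49 on the 2 paths (estimate −0.45 ± 0.06, limma adjusted p = 0.0451), with its neighbours CSR1 and NAM2 at −0.002 and −0.08 directly.

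YLR280C was at 0.50 directly and 0.42 indirectly (limma adjusted p = 0.0381), and its neighbour RSO55 was at 0.47 and 0.30 and was not called. YDR215C was at 0.60 and 0.39 (limma adjusted p = 0.0445), and its neighbour ADR1, a regulator of glucose-repressed genes, was at −0.03 and −0.24. The calls of CTF3, YLR280C and YDR215C were near the threshold and ended without centring.

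Some Ty ORFs were higher in the hybrid than in Sc1. Of 27 measured ORFs on the Ty list, which does not hold every Ty ORF of the array, 7 were called higher, 0 lower and 20 were not called (limma, 17 of the 27 at p under 0.05 before adjustment), against 0.327% called higher over all ORFs. The 7 became 6 without centring and 5 with 4 prior degrees of freedom. The median direct value was 0.23 and the median indirect value 0.24, beside medians near 0 over all ORFs. Copies of one element share sequence, so the ORFs of this list share signal and are not separate measurements.

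YJL114W, a Ty4 ORF on chromosome X, was at 2.35 in the hybrid over Sc1 sample, 0.10 in the hybrid over Sc2 sample and −2.51 in the Sc1 over Sc2 sample (estimate 2.44 ± 0.08, limma adjusted p = 8.03e-05), or 5.43-fold higher. Its neighbour in the same element, YJL113W, was at 0.12 directly and 0.00 indirectly, so the 2 ORFs did not move alike. The other called Ty ORFs stood lower, and their hybrid over Sc2 values were below 0. YFL-TYA was at 1.19 directly and −0.46 against Sc2 (limma adjusted p = 0.00125), YBL101W-A at 1.08 and −0.46 (limma adjusted p = 0.00125), and YML039W at 0.77 and −0.57 (limma adjusted p = 0.00414). YCL020W, at 0.68, YFL-TYB, at 0.53, and YMR051C, at 0.52, completed the 7, and the lowest of the 27 was YAR010C at −0.21. Of the Ty ORFs outside the list, named after their values were seen, YHR214C-B was at 0.54 directly and 0.40 indirectly and was called higher (limma adjusted p = 0.0411), while YBR012W-A and YBR012W-B were at −0.02 and 0.03 directly.

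Near the ends of other chromosomes, further ORFs were called in both directions. SEO1, a putative permease gene on the left end of chromosome I, was at −0.89 in the hybrid over Sc1 sample, 2.06 in the hybrid over Sc2 sample and 2.87 in the Sc1 over Sc2 sample. Its estimate was −0.86 ± 0.06 (limma adjusted p = 0.00331), while its neighbour YAL066W was at −1.06 directly and −0.06 indirectly and was not called. That indirect value is the difference of 2.63 (hybrid over Sc2) and 2.68 (Sc1 over Sc2). YGL262W and the COS family gene COS12, side by side on the left end of chromosome VII, were at −0.83 and −0.56 directly and −0.69 and −0.70 indirectly (limma adjusted p = 0.00571 and 0.0169). In the other direction, YLR465C on the right end of chromosome XII was at 0.54 directly and 0.60 indirectly (limma adjusted p = 0.0179), as was YHR214C-B, given above, on the right end of chromosome VIII. YLR465C lies outside the rule for named ORFs and was named after its values were seen.

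Counted by direction and by the value against Sc2, the called ORFs divided as follows. Of the 20 called higher than Sc1, 10 had a hybrid over Sc2 value within 0.3 of 0 and 10 had a value of −0.3 or lower. Of the 21 called lower than Sc1, 14 were within 0.3 of 0 against Sc2, 4 were at 0.3 or higher, namely SEO1, YGL262W, CUP1-1 and CUP1-2, and 3 were at −0.3 or lower, namely MAL13, YGR290W and YLR162W. These are values of 1 sample with no test, and the estimate against Sc1 uses that sample too.

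Among genes of sugar use, the calls were confined to members of the clusters above. Of 13 maltose and isomaltose genes, 1 was higher (IMA4), 5 were lower (MAL13, MAL11, MPH2, MPH3 and IMA1) and 7 were not called, with a median direct value of −0.13. Over all ORFs 0.327% were called higher and 0.343% lower. Of 20 hexose transporter and glucose sensor genes, HXT9 and HXT12 were called higher, 0 were called lower and 18 were not called (7 of the 20 before adjustment), with a median of −0.02. Among these 18, the main glucose transporter genes HXT6 and HXT7 were at −0.11 and −0.06 directly and 0.05 and 0.02 indirectly. The paths differed more for HXT1, at 0.32 and −0.13, and for HXT3, at −0.02 and 0.26. Of 4 sorbitol and mannitol dehydrogenase genes, SOR1 and SOR2 were lower, while DSF1 and MAN2 were at −0.07 and 0.01.

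The title of the series names mannoprotein release, the shedding of glycoproteins of the cell wall, and the wall genes on the lists gave no call. Over all ORFs 0.670% were called, so a count of 0 in lists of this size is near the background. Among 27 genes for mannoproteins of the cell wall, limma called 0, and 0 passed an unadjusted p of 0.05. Their direct values ran from −0.16 (CWP1) to 0.145 (SED1) with a median of −0.005. Of 31 measured protein mannosylation genes, which build the sugar chains of mannoproteins, limma called 0 (2 before adjustment, at p under 0.05), with direct values from −0.18 (KTR5) to 0.23 (PMT6). Of 27 measured genes of wall glucan and chitin, limma called 0, with 0 before adjustment, and direct values ran from −0.19 (CTS1) to 0.19 (SCW11). The flocculin genes, which make cells clump, had 0 calls of 5 by limma (1 before adjustment), and FLO1 was the highest at 0.29 directly and 0.51 indirectly.

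PRY3, on the list of wall mannoproteins, was at −0.09 directly and 0.92 indirectly, so that the paths disagree by 1.01. The genes MNN10 and PSA1 of mannosylation were at 0.09 and 0.10 directly and 0.61 and 0.57 indirectly. In these cases the direct sample showed no shift and the indirect path did, and none was called.

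The remaining lists held few calls. Of 30 glycolytic and fermentative genes limma called 0 (2 before adjustment), with direct values from −0.22 (GPM1) to 0.17 (PGK1). Of 17 measured genes of thiamine, pyridoxine and biotin synthesis limma called 0 (5 before adjustment). The lowest were the B6 genes SNZ3, SNZ2, SNO3 and SNO2, between −0.39 and −0.34 directly and between −0.70 and −0.27 indirectly. Of 11 COS family genes COS12 was lower, with a median direct value of −0.15, and of 10 genes of copper, sulphite, arsenic and sodium tolerance the CUP1 genes were lower, against 0.343% called lower over all ORFs. With 4 prior degrees of freedom both lists held 0 calls, and without centring the second held 1.

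Limma called 0 of 7 helicase genes of Y' elements, which lie beside the telomeres (1 before adjustment), and 0 of 10 measured genes of the DUP240 family (0 before adjustment). Of 23 measured seripauperin genes it called 0 (2 before adjustment). The counts were also 0 of 6 measured aryl-alcohol dehydrogenase genes (1 before adjustment) and 0 of 4 asparaginase genes beside the ribosomal DNA (1 before adjustment). Among these, YRF1-4 was at 0.21 directly and 0.51 indirectly, and AAD15 at 0.31 and 0.39. The Y' list holds only the YRF1 helicase genes, so its count does not speak for other ORFs beside the telomeres. YLR465C, called higher, lies next to YRF1-4 and is not on that list, nor are YEL076C and YEL075W-A.

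**Figure D4:**
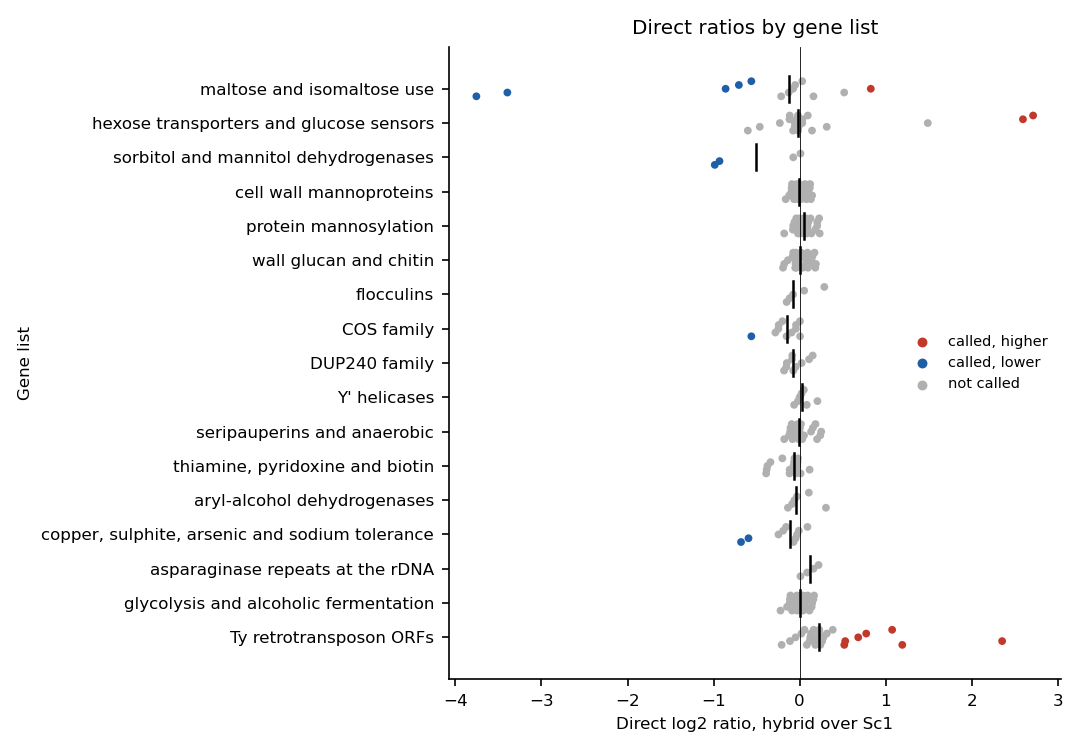
Direct log2 ratio of the hybrid over Sc1 (x axis) for the measured members of 17 gene lists (y axis), 1 point per ORF, with called ORFs in red and blue and a black bar at the list's median. The maltose list spans −3.76 to 0.83, the Ty list reaches 2.35 and the cell wall mannoproteins stay between −0.16 and 0.145.

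The medians of the 16 chromosomes ran from −0.10 (chromosome I) to 0.04 (chromosome VIII) directly and from −0.03 to 0.03 indirectly, with SDs of 0.037 and 0.017 between chromosomes. For scale, 3 copies over 2 would give 0.58, and a gain at higher ploidy or in part of the cells would give less and was not tested. Chromosomes I, II and III had the lowest direct medians, −0.10, −0.05 and −0.05, and their indirect medians were −0.03, −0.01 and −0.005. The shift of chromosome I, seen over 109 ORFs, was thus larger in the direct sample than on the indirect path, and its cause was not tested.

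Within chromosomes, 10 of 5930 windows of 11 neighbouring ORFs had a direct median of at least 0.2 in size, and 9 had it on both paths with the same sign. The windows with the highest direct medians were at the left end of chromosome X, at 0.25 directly and 0.33 indirectly. The next highest was at the right end of chromosome XII, from YLR456W to YRF1-4, at 0.21 and 0.23. The windows with the lowest direct medians were in the chromosome VI block. Chromosome X held the most called ORFs, 6 higher and 3 lower. Chromosomes XI, XIV, XV and XVI held 0 calls by limma (12, 22, 31 and 38 before adjustment).

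**Figure D5:**
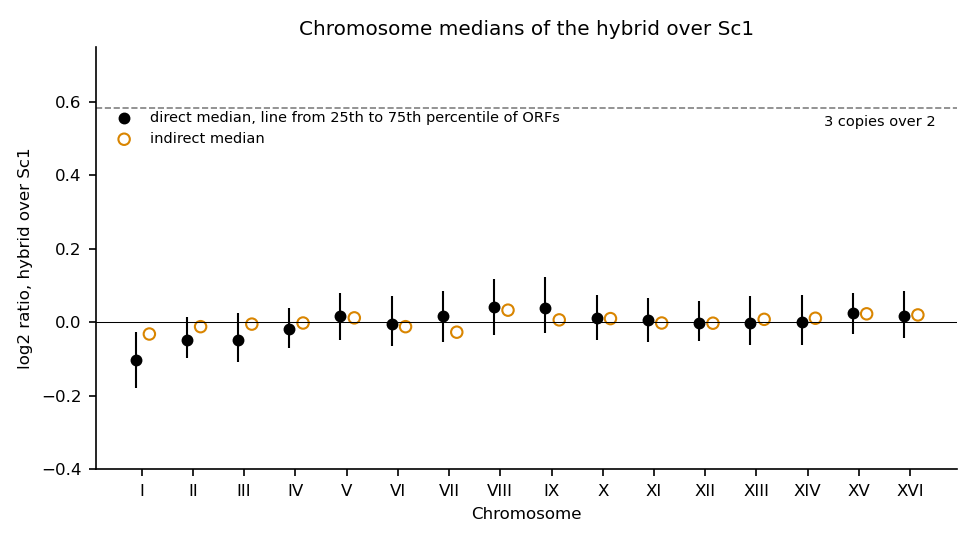
Median log2 ratio of the hybrid over Sc1 (y axis) for the 16 chromosomes (x axis), filled for the direct and open for the indirect values, with lines from the 25th to the 75th percentile of direct values and a dashed line at 0.58, where 3 copies over 2 would lie. All medians lie between −0.10 and 0.04.

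For 10 ORFs the closure was at least 1 in size. NUD1, a spindle pole body gene on chromosome XV, was at 1.71 directly and 0.36 indirectly, and its neighbours NDD1 and ALD4 were at 0.02 and 0.14 directly. The pectinase gene PGU1 was at 0.20 directly and −1.42 indirectly, and CSS3 at 0.03 and −1.23. Both indirect values are differences of 2 low ratios against Sc2. PGU1 was at −3.63 in the hybrid over Sc2 sample and −2.205 in the Sc1 over Sc2 sample, and CSS3 at −2.42 and −1.18. YAR040C and YKL097C were near 0 directly, at −0.16 and 0.05, and at 1.18 and 1.23 indirectly. The other 5, REE1, HXT12, HXT11, YAL066W and PRY3, are given above, and of the 10 only REE1 and HXT12 were called.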

How the data were processed

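Per the labels, genomic DNA was digested with Hinf I, labelled with 2 dyes and co-hybridised by pairs of strains on duplicate dye-swap arrays. The deposited table gives a score per ORF and sample, read here as a log2 ratio. The authors' scanner, background correction, normalisation and averaging are not stated in the labels or the file. Signal over background is unknown, the arrays are few, and what limits the precision was not tested.

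In the sample of R2 IVo against Sc1, 14 whole-number values of at least 1000 in size were read as having lost their decimal point and divided by 1000 (11 and 51 in the other samples). Control entries (2) were dropped. Of the 6135 ORFs, 5635 matched a RefSeq R64 locus tag, used for symbols only, and chromosome order follows systematic names.

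The 3 samples were fitted as a triangle (limma 3.58.1, R 4.3.3), with 1 residual degree of freedom per ORF and estimated prior degrees of freedom of 5.30. The fit was tested on simulated data: in 30 draws of 6123 ORFs it recovered 99.9% of 200 ORFs altered by 1 in log2, and 8.99% of calls were false, more than the nominal rate. The simulated noise did not depend on the size of the ratio. Fewer ORFs, 41, were called in the data, and most of their estimates were under 1 in size. These shares therefore need not hold for the calls above.

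Named were the 12 highest and 12 lowest called ORFs, all block ORFs with their flanks, ORFs with a direct value or closure of at least 1 in size, and called, extreme or paralogous members of the gene lists; neighbours of singled-out ORFs were added. The members and lists were chosen with earlier results of these data known. Alternatives covered centring, moderation, restored values, multi-copy families and the path.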

Additional observations from a re-analysis of the deposited data

How the results depend on the processing

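No ORF called between the hybrid and Sc1 changed direction under any alternative run, which is no test of direction. Changes of moderation and the removal of ORFs leave each estimate as it was, and centring moves it little. The called ORFs all had the same sign on both paths from the start. The 41 calls fell to 23 with the prior degrees of freedom set to 4 (10 higher, 13 lower) and to 23 at an adjusted p under 0.01 (10 higher, 13 lower). They fell to 26 without the multi-copy families (7 higher), where 31 of the 41 were still tested and 5 ended; the CUP1, SOR and MPH copies stayed in. They fell to 15 without ORFs with a restored value (1 higher), a choice that removes 22 of the 41. Without centring, 12 were called higher and 19 lower, and centred on the mode 28 and 21. In all, 23 ORFs were called in each of the fits without centring, on the mode, with robust moderation and with 4 prior degrees of freedom, among them MAL13, MAL11, YJL218W, HXT9 and SOR1. The calls of REE1 and HXT12 ended with robust moderation, without centring and with 4 prior degrees of freedom. With 4 prior degrees of freedom 18 calls ended, among them those of CUP1-1, CUP1-2, IMA1, AQY3, DDI3, COS12, CTF3 and YLR162W. The causes were not tested.

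Of the ORFs with a direct value of at least 1 in size, 0 remained without restored values, since all 14 are restored. The 7 blocks became 4 at a minimum size of 0.5 and 12 at 0.2. The SD of the chromosome medians was 0.0371 directly and 0.0174 on the indirect path. Leaving out a sample leaves no residual degree of freedom, so the direct and indirect values alone carry no test. No paired analysis was possible because each pair of strains has 1 sample.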

Other observations

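Some ORFs have a value in only part of the samples. The 12 ORFs with a direct value that lack another were not fitted. Among them MDJ1, a mitochondrial chaperone gene on chromosome VI, was at 0.74 in the direct sample and 0.12 in the Sc1 over Sc2 sample, while its neighbours GNA1 and YFL015C were at −0.06 and −0.10 directly. No other of the 12 was over 0.5 in size.

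No direct value was given for 43 ORFs, of which 24 had both other values. Chromosome II held 14 of them, and 8 were neighbours from YBR146W to YBR153W. For YPS7, an aspartic protease gene of the yapsin family, the hybrid over Sc2 value was 1.04 and the Sc1 over Sc2 value −0.52. These put it higher in the hybrid on the indirect path, but without a direct value it was not fitted and could not be called.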
